A study of Schmidtea mediterranea with 171 samples.

Results

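The cells described here are single planarian cells with a high level of piwi-1, sorted through the X1 gate or the X2 gate, and the question is how those of the X1 gate differed from those of the X2 gate. A cell was kept if piwi-1 (transcript SmedASXL_008653) reached at least 100 CPM, that is 100 of every 1000000 reads assigned to a transcript. This rule kept 79 single cells. They were 56 of all 96 X1 cells and 23 of all 72 X2 cells of the series, and the X1 cells were 35 of the 72 numbered 1 to 72 and 21 of the 24 numbered 73 to 96. The members were chosen by a measured value, so piwi-1 is given as a description and was left out of every comparison.

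Per the labels, the cells came from the amputated heads of 30 wildtype animals of the clonal asexual CIW4 strain of Schmidtea mediterranea, starved for 1 week. Cells were sorted by Hoechst fluorescence into the X1 gate or the X2 gate. The X1 gate takes cells with more DNA than resting cells. The X2 gate takes cells with less DNA than those of the X1 gate and was used as the source of early progeny. Single cells, 2 tubes of 200 X1 cells and 1 tube of 200 X2 cells were amplified with SmartSeq2, which copies full-length cDNA from polyadenylated RNA. The labels do not give the animal, sort or plate of a cell, nor whether X1 and X2 cells came from a single pool. Each gate therefore counts as 1 sample, its cells are not replicates, and differences are given as values with no test.

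Neoblasts are the stem cells of planarians and the only cells of the animal known to divide. They are defined by genes of the germline type that act on RNA: piwi proteins bind small piRNAs and silence transposons, vasa proteins are DEAD-box RNA helicases and bruli is an RNA-binding protein of the Bruno family. Transcripts of piwi-1 mark neoblasts, and the X2 gate can also take in stem cells between divisions.

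The transcripts of piwi-1 and piwi-2 are identified here by the start of their longest open reading frame, since the first set the rule and the second was the most abundant of the other stem cell genes. The first 30 bases are shown from the transcript sequences listed by the study, with the start codon in capitals.
piwi-1: ATGgattcaactaatgttacaagtgatccc
piwi-2: ATGgaggaaataccagtaaaagtagctaaa

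Among kept cells piwi-1 ranged from 170 to 3542 CPM in X1 cells 1 to 72 (median 529 CPM, n = 35). In X1 cells 73 to 96 it ranged from 116 to 1294 CPM (median 451 CPM, n = 21), and in X2 cells from 134 to 7279 CPM (median 785 CPM, n = 23). The ranges overlapped widely. Just inside the threshold lay X1 cells 77 and 73 with 116 and 128 CPM and X2 cells 37 and 17 with 134 and 136 CPM. Just outside it lay X1 cells 25, 60, 46 and 79 with 94.7, 84.5, 82.8 and 79.8 CPM. The rule kept 58.3% of X1 cells (exact Clopper-Pearson 95% interval 47.8% to 68.3%) and 31.9% of X2 cells (21.4% to 44.0%), and these intervals cover counting error only.

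**Figure D1:**
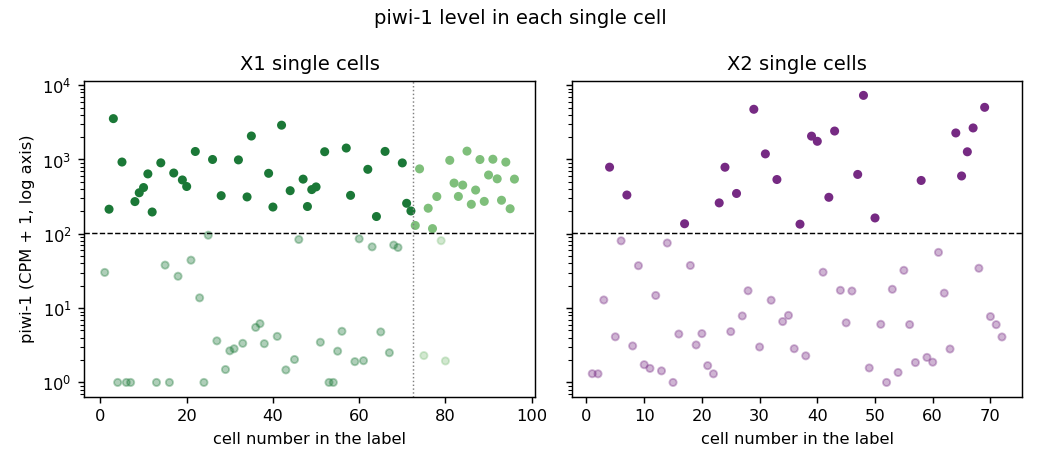
Each point is 1 single cell, with its number in the label on the horizontal axis and its piwi-1 level (CPM + 1, log axis) on the vertical axis, X1 cells on the left and X2 cells on the right. The dashed line is the threshold of 100 CPM. Points in full colour are the 56 X1 and 23 X2 cells kept, and faint points are cells under the threshold. The dotted line parts X1 cells 1 to 72 from 73 to 96, and 21 of the 24 cells numbered 73 to 96 were kept.

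Kept cells differed in depth and in composition between the gates. The median number of assigned reads was 4.26 M in X1 cells 1 to 72, 3.40 M in X1 cells 73 to 96 and 2.778 M in X2 cells, and it spanned 0.988 to 20.2 M over all kept cells. In every group 3 transcripts took most of the reads, a median of 86.1%, 85.0% and 79.3% of a cell's assigned reads in the same order of groups. CPM values of all other transcripts depend on that share, and the effect of leaving these 3 out of the library size is given with the alternatives. No 2 single cells had identical counts.

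The other stem cell genes had mean levels in kept X2 cells of the same order as in kept X1 cells, but fewer of the genes were present together in a kept X2 cell. The list holds 6 genes beside piwi-1, and 0 of them passed the rule for a difference, a log2 ratio of mean CPM + 1 of at least 2 in size (4-fold), with reads in at least 50% of the kept cells of the higher group. Over all 11605 transcripts compared, 2.757% passed in the direction of X1 and 0.81% in the direction of X2. The median log2 ratio of the 6 genes, X1 over X2, was -0.27 with CPM, but 0.11 with TMM factors, 0.14 with unassigned reads in the library size, 0.24 without the 3 largest transcripts and 1.601 with the authors' size factors, so no direction held across scalings. It was 2.249 as a difference of mean log2 values and 1.135 without the highest 2 cells of each gate, the alternatives that give single high cells less weight. The median over all transcripts compared was 0.93 with CPM.

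At the level of single cells, most kept X1 cells had nearly all of the 6 genes present and kept X2 cells had fewer. A gene was counted as present in a cell at 10 CPM or more. Of the kept X1 cells 1 to 72, 25 of 35 had at least 5 of the 6 genes present (71.4%, 95% interval 53.7% to 85.4%). Of X1 cells 73 to 96, 17 of 21 did (81.0%, 58.1% to 94.5%). Of X2 cells, 0 of 23 did, with an upper bound of 14.8%. The median number present was 5 in X1 cells 1 to 72, 6 in X1 cells 73 to 96 and 2 in X2 cells. In X1, 1 of 56 cells had none, X1 cell 44, with 379 CPM of piwi-1. In X2, 4 cells had 4 of the genes, 5 had 3, 6 had 2, 5 had 1 and 3 had none.

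Of the piwi family, piwi-2 had close medians in X1 cells 1 to 72 and X2 cells. It had a median of 1038 CPM in X1 cells 1 to 72 (9.42 to 3451 CPM), 702 CPM in X1 cells 73 to 96 (79.8 to 1713 CPM) and 1037 CPM in X2 cells (1.233 to 8012 CPM). It was present in 34 of 35, 21 of 21 and 18 of 23 cells. The third family member, piwi-3, had a median of 210 CPM (0 to 930 CPM) and 243 CPM (10.2 to 833 CPM) in the 2 ranges of X1 cells, against 4.65 CPM in X2 cells (0 to 3153 CPM). The mean of piwi-3 was nevertheless 268, 307 and 556 CPM in X1 cells 1 to 72, X1 cells 73 to 96 and X2 cells. The X2 mean came from 11 of 23 cells with 10 CPM or more.

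The RNA helicase genes vasa-1 and vasa-2 had higher medians in X1 cells than in X2 cells, and at least 19 of 23 X2 cells were under 10 CPM for either gene. For vasa-1 the median was 217 CPM in X1 cells 1 to 72 (highest 854 CPM), 228 CPM in X1 cells 73 to 96 (highest 1060 CPM) and 0.538 CPM in X2 cells (highest 1798 CPM). It was present in 29 of 35, 20 of 21 and 3 of 23 cells, and those 3 X2 cells had 495, 1602 and 1798 CPM. For vasa-2 the medians were 15.4, 26.4 and 0.356 CPM, with the gene present in 20 of 35, 13 of 21 and 4 of 23 cells. The highest X2 cell had 1626 CPM of vasa-2 and also the highest piwi-1 level of all kept cells, 7279 CPM, with 0.360 CPM of vasa-1.

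For bruli, needed in planarians to maintain neoblasts, the median was 83.0 CPM in X1 cells 1 to 72, 166 CPM in X1 cells 73 to 96 and 0 CPM in X2 cells. It was present in 28 of 35, 19 of 21 and 2 of 23 cells, and 1 X2 cell with 1806 CPM made nearly all of the X2 mean of 80.0 CPM. For HP1-1, a heterochromatin protein gene, the medians were 76.3, 70.5 and 0.869 CPM and the means 97.3, 80.1 and 92.6 CPM. It was present in 30 of 35, 18 of 21 and 10 of 23 cells. The log2 ratios of bruli and vasa-1, 1.325 and 0.7214, stayed above 0 in all 16 alternatives run, whereas those of the other 4 genes crossed 0 in at least 2 of them.

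**Figure D2:**
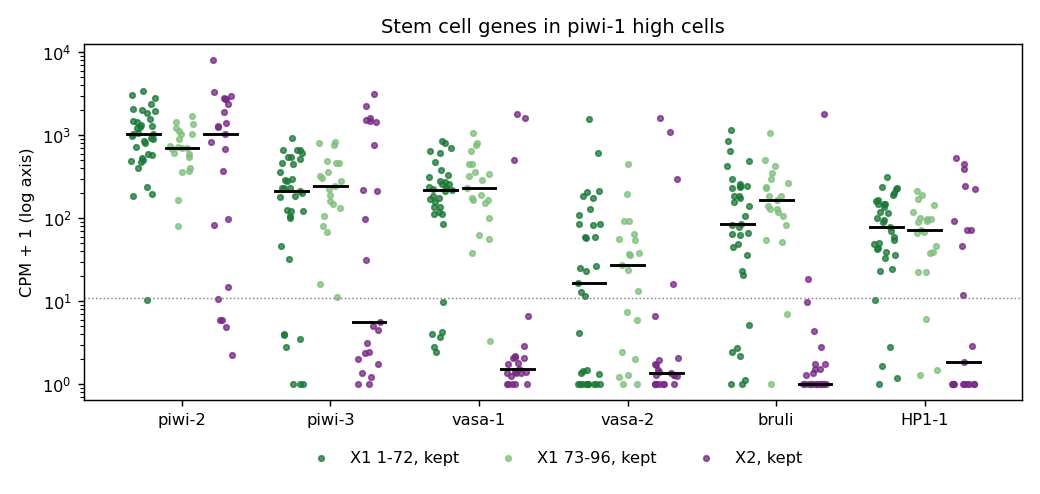
Each point is 1 piwi-1 high cell, with the level of 6 stem cell genes (CPM + 1, log axis) in X1 cells 1 to 72, X1 cells 73 to 96 and X2 cells, black bars for the medians and a dotted line at 10 CPM. The medians of vasa-1 are 217, 228 and 0.538 CPM, and the X2 cells split into a few with 495 CPM or more and many near 0.

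In the tubes of 200 cells, which were not selected for piwi-1, 0 of the 6 stem cell genes differed 4-fold, but vasa-1 and vasa-2 differed by about 2-fold. The piwi-1 level was 427 and 548 CPM in the X1 tubes and 475 CPM in the X2 tube. The values of piwi-2 were 873 and 931 CPM against 776 CPM, those of piwi-3 were 231 and 213 CPM against 350 CPM, and those of bruli were 119 and 94.3 CPM against 71.7 CPM. For vasa-1 they were 217 and 290 CPM against 121 CPM (log2 ratio 1.058), and for vasa-2 they were 42.5 and 45.2 CPM against 20.6 CPM (1.054). A tube ratio of at least 1 on the log2 scale was reached by 10.51% of all transcripts compared. For HP1-1 they were 93.0 and 212 CPM against 94.7 CPM, so the X2 tube lay between the X1 tubes. The tubes average over 200 cells, so they hold no information on how levels were spread over cells, and in them fewer cells of a type and less RNA per cell cannot be told apart.

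Low medians beside high means in X2 cells were not particular to the stem cell genes. In a set chosen after the values were seen, 239 transcripts had a mean of at least 50 CPM in both gates, with the 3 largest left out. The median cell had a typical level of 45.7 CPM of such a transcript in X1 cells 1 to 72, 58.6 CPM in X1 cells 73 to 96 and 1.1 CPM in X2 cells. The highest single cell held a median of 16.8%, 18.9% and 36.4% of a transcript's summed CPM over 35, 21 and 23 cells. After each cell was thinned to 100000 reads, such a transcript was read in a median of 71.4%, 81.0% and 43.5% of cells. The coefficient of variation was lower in X1 than in X2 for 191 of the 239. The 239 include the 6 stem cell genes, and a minimum mean favours transcripts with a high level in single cells. The gene of α-tubulin, a component of microtubules, had medians that were close, 58.9, 55.0 and 52.2 CPM, and was present in 29 of 35, 19 of 21 and 16 of 23 cells. Its means were 75.5, 54.1 and 147 CPM in the same order of groups, with 738 CPM in the highest X2 cell.

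Kept X2 cells had fewer transcripts detected than kept X1 cells. The median number with a read was 4769 in X1 cells 1 to 72 (978 to 8373), 6543 in X1 cells 73 to 96 (3967 to 11287) and 2093 in X2 cells (986 to 4365). At an equal depth of 100000 reads the medians were 2055 (643 to 2839), 2353 (1508 to 3751) and 844 (365 to 1724). The ranges overlapped at both depths. Cells under the piwi-1 threshold had similar medians, 4490 transcripts in X1 and 1873 in X2. Transcripts read in at least 50% of the kept cells numbered 1405 in X1 cells 1 to 72, 2787 in X1 cells 73 to 96 and 508 in X2 cells, and 389, 582 and 131 at equal depth. SmartSeq2 reads carry no molecular identifiers, so fewer RNA molecules in a cell and a lower yield of its library cannot be told apart.

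**Figure D3:**
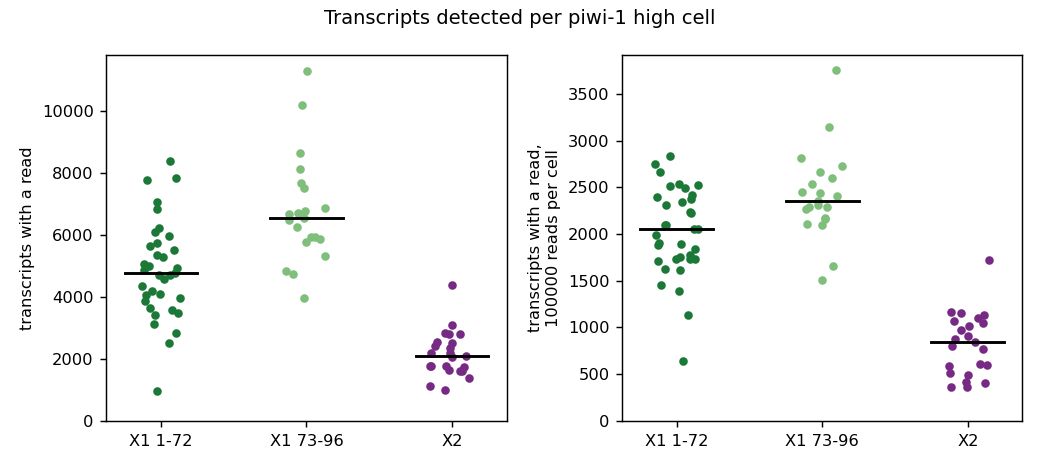
Points are piwi-1 high cells and bars are medians, with the number of transcripts with at least 1 read as deposited on the left and after thinning to 100000 reads per cell on the right. The medians are 4769, 6543 and 2093 on the left and 2055, 2353 and 844 on the right.

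Over all other transcripts, 320 of 11605 were at least 4-fold higher in kept X1 cells (2.757%) and 94 were at least 4-fold lower (0.81%). A transcript was compared if the mean of the 2 gates' mean levels was at least 1 CPM. Taken apart, X1 cells 1 to 72 were higher for 270 transcripts (2.327%) and lower for 107 (0.922%), and X1 cells 73 to 96 were higher for 492 (4.24%) and lower for 96 (0.8272%). In both ranges 142 transcripts were higher (1.224%) and 65 were lower (0.5601%). Both ranges were set against the same X2 cells, so the 2 comparisons are not independent.

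The transcripts higher in kept X1 cells, chosen for a low mean in kept X2 cells, were present in the X2 tube, which the choice did not use. A median transcript of the 320 was read in 33 of 56 kept X1 cells and 3 of 23 kept X2 cells, against 12 and 2 for all transcripts compared. No read in any kept X2 cell was found for 41 of the 320 and for 2718 of the 11605 compared. The rule required reads in a minimum share of kept X1 cells, which favours abundant transcripts among the 320. The counts of transcripts with no read therefore cannot tell absence from low abundance, and nothing is read from them. The mean level of a median transcript of the 320 was 24.0 CPM in kept X1 cells, against 0.548 CPM in kept X2 cells. In X2 cells under the piwi-1 threshold it was 5.90 CPM. In the tubes a median transcript of the 320 had 18.2 CPM in the X1 tubes and 15.1 CPM in the X2 tube, against 3.81 and 3.24 CPM for all transcripts compared. The X2 tube was at least 10 times the mean of the kept X2 cells for 67.2% of the 320 and for 39.4% of all compared, and the choice of the 320 favours such a gap, so nothing is read from it. The median log2 ratio of the tubes, X1 over X2, was 0.23 for the 320 and 0.09 for all transcripts compared. It reached 1 for 15.3% of the 320 and for 10.51% of all compared.

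By the smaller of the ratios of the 2 X1 ranges, SmedASXL_018236 and SmedASXL_018407 stood highest, and neither has a gene name in the sources used here. SmedASXL_018236 had a mean of 71.9 CPM in X1 cells 1 to 72 (read in 19 of 35), 79.8 CPM in X1 cells 73 to 96 (18 of 21) and 0.0293 CPM in X2 cells (2 of 23). Its tube values were 47.9 and 41.0 CPM for X1 and 46.4 CPM for X2. SmedASXL_018407 had 99.9 CPM (19 of 35), 69.1 CPM (20 of 21) and 0.00907 CPM (1 of 23), with 38.8 and 49.2 CPM in the X1 tubes and 24.9 CPM in the X2 tube. Both were thus near 0 in the kept X2 cells and at 24.9 CPM or more in the X2 tube.

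The 94 transcripts lower in kept X1 cells were chosen for a high mean in kept X2 cells, and were at lower levels in the X2 tube. A median transcript among them had a mean of 17.6 CPM in kept X1 cells and 156 CPM in kept X2 cells, but 9.30 CPM in the X1 tubes and 6.77 CPM in the X2 tube. The mean of the kept X2 cells was at least 10 times the X2 tube for 56.4% of the 94 and for 13.9% of all compared, a gap that the choice of the 94 again favours. The median tube log2 ratio, X1 over X2, was -0.02, and it was -1 or less for 5.32% of the 94 and 4.688% of all compared. In the opposite direction, it was 1 or more for 15.96% of the 94 and 10.51% of all compared. No read was found in any kept X1 cell 1 to 72 for 20 of the 94 and for 590 of the 11605 compared. SmedASXL_079774, the lowest unnamed transcript by the weaker of its ratios in the 2 ranges, had 0 reads in 35 X1 cells 1 to 72, a mean of 11.7 CPM in X1 cells 73 to 96, 383 CPM in X2 cells and 0.588 CPM in the X2 tube. SmedASXL_071276, the next by that measure, had 0 reads in all 56 kept X1 cells and in all 3 tubes. Its mean of 27.8 CPM in X2 cells came from 1 cell with 628 CPM, while 13 of 23 cells had a read.

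**Figure D4:**
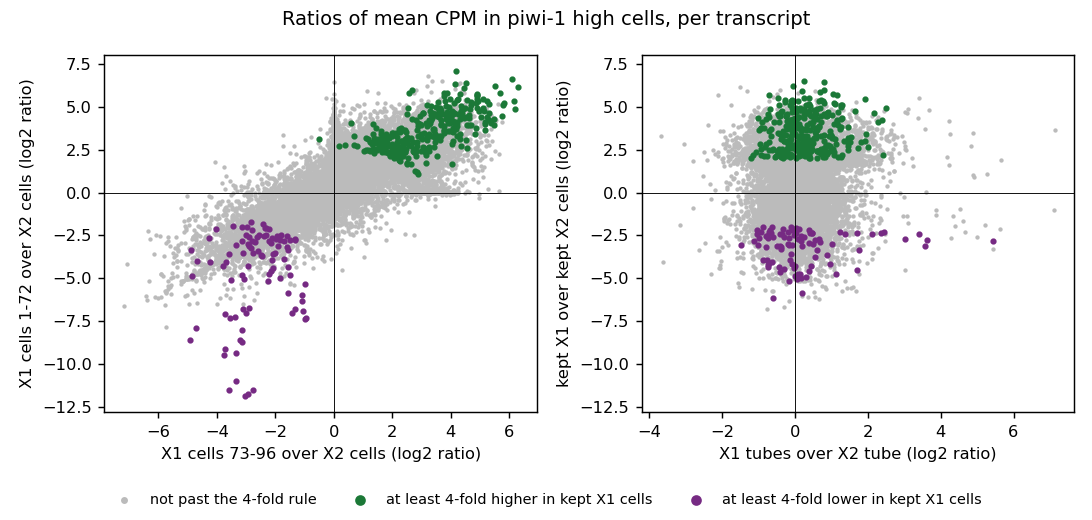
Each point is 1 of the 11605 transcripts compared, as log2 ratios of mean CPM + 1. The left panel sets the ratio of X1 cells 1 to 72 over X2 cells against that of X1 cells 73 to 96 over the same X2 cells, and the right panel sets kept X1 over kept X2 cells against the X1 tubes over the X2 tube, where the 320 higher transcripts (green) have a median of 0.23 and the 94 lower ones (purple) a median of -0.02.

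The list with the most members lower in kept X1 cells was a set of 17 transcripts that the study cloned as enriched along the lineage of the X2 gate. The study chose it on these cells, so its direction is not independent evidence. Of the 17, 13 passed the rule as lower in kept X1 cells, 11 of them in both ranges, and 0 passed as higher, against 0.81% of all transcripts compared. The median log2 ratio of the list was -4.16, with -7.31 for X1 cells 1 to 72, -2.75 for X1 cells 73 to 96 and -7.22 for all kept X1 cells without those numbered 81 to 96.

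The summed level of the 17 transcripts followed the cell number among kept X1 cells. It ranged from 141 to 1404 CPM in kept X1 cells 1 to 72 (median 521 CPM) and from 317 to 1408 CPM in the 5 kept X1 cells 73 to 80. In the 16 kept X1 cells 81 to 96 it ranged from 2714 to 16441 CPM (median 4791 CPM). Among X1 cells under the threshold there were exceptions, X1 cell 41 with 4703 CPM and X1 cell 65 with 1487 CPM. In kept X2 cells it ranged from 8472 CPM to 108840 CPM (median 25761 CPM), and in X2 cells under the threshold the median was 33814 CPM. The tubes had 483 and 935 CPM for X1 and 456 CPM for X2. The X2 tube thus lay within the range of X1 cells 1 to 72 and below every single X2 cell. The labels do not say which cells shared a preparation, and the part of preparation in these values was not tested.

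**Figure D5:**
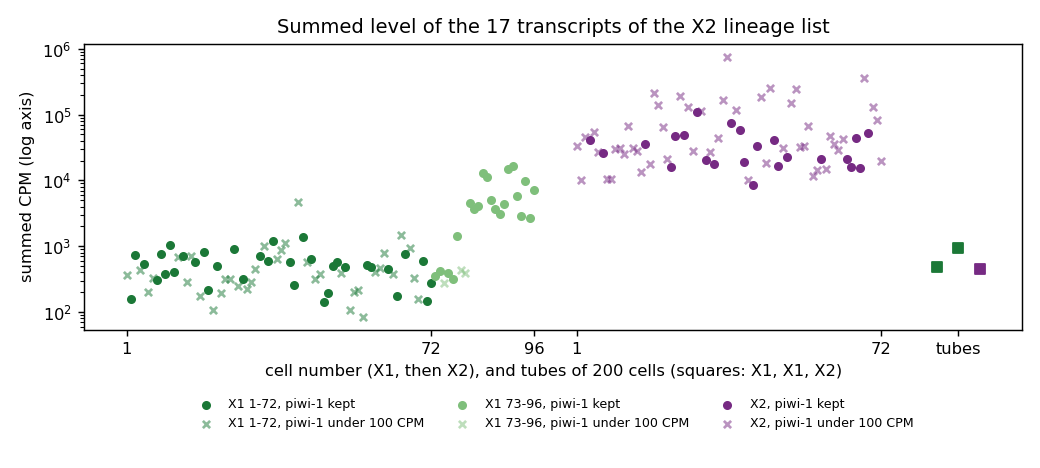
The summed level of the 17 transcripts of the X2 lineage list (CPM, log axis) is plotted for each single cell by its number, X1 then X2, with circles for kept cells, crosses for cells under the piwi-1 threshold and squares for the tubes. Kept X1 cells 81 to 96 sit between 2714 and 16441 CPM, kept X2 cells between 8472 and 108840 CPM, and the tubes between 456 and 935 CPM.

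Within the list, 8 of 17 transcripts had 0 reads in all 35 kept X1 cells 1 to 72, as did 590 of all 11605 transcripts compared. The 8 were read in 17 to 19 of the 21 kept X1 cells 73 to 96 and in 21 to 23 of the 23 kept X2 cells. Their means were 28.3 to 461 CPM in X1 cells 73 to 96, 258 to 3756 CPM in X2 cells and 0.221 to 5.88 CPM in the X2 tube. With reads summed over a group and divided by its summed library size, the 8 had 289 to 3594 CPM in X2 cells. On that scale, against a floor of 3 counts over X1 cells 1 to 72 (0.0186 CPM), each was at least 15532-fold lower in X1 cells 1 to 72 than in X2 cells. GTPBP-6 (SmedASXL_018648) is an example, with 0 CPM in X1 cells 1 to 72, a mean of 445 CPM in X1 cells 73 to 96 and 2997 CPM in X2 cells. Its tube values were 0 and 10.8 CPM for X1 and 2.3 CPM for X2. The most abundant member, GT-1 (SmedASXL_078929), had means of 84.3, 1257 and 13149 CPM in X1 cells 1 to 72, X1 cells 73 to 96 and X2 cells, and 0, 72.9 and 48.3 CPM in X1 tube 1, X1 tube 2 and the X2 tube.

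Some of the listed sequences of the 17 transcripts shared a short run near their start. A search of the 36 cloned sequences in their listed direction took the 12-base run, containing all 4 bases, that the largest number shared. The run extended to 15 bases, GTGCTCTTCCGATCT, and was then sought on either strand. It was found in 8 of the 17 transcripts of the list and in 0 of the 19 other listed sequences (at most 399 listed bases each), and it began at base 7 or before. As background, these letters are the 3′ end of a sequencing adapter of the Illumina platform, and a match is a description of the listed sequence alone. The 8 carriers were not the same 8 as those with 0 reads in X1 cells 1 to 72. SmedASXL_078975 and SmedASXL_019053 had 0 reads there and do not hold the run, whereas GT-1 and yps-1 hold it and were read there. Sequences up to the end of the run are shown for the 4 named carriers, with the shared run in capitals, because their levels separate the groups in different ways.
GT-1: agacgtGTGCTCTTCCGATCT
GTPBP-6: agacgtGTGCTCTTCCGATCT
SAS-1: GTGCTCTTCCGATCT
yps-1: acgtGTGCTCTTCCGATCT

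Not every carrier followed the cell number. SAS-1 had 0 CPM in X1 cells 1 to 72, a mean of 241 CPM in X1 cells 73 to 96 and 2896 CPM in X2 cells. In contrast yps-1 had 133, 90.8 and 227 CPM in the same groups and 77.6 and 103 CPM in the X1 tubes against 104 CPM in the X2 tube. Of the Y-box genes Ybp2-1 and Ybp2-2, which are named for a family of nucleic acid-binding proteins and whose listed sequences do not hold the run, Ybp2-1 had 153, 116 and 116 CPM and Ybp2-2 had 11.2, 13.5 and 22.0 CPM. Together with yps-1 and SmedASXL_018624 (71.2, 77.9 and 38.1 CPM), these were the 4 members that did not pass the rule.

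Of 6 genes of neurons, castor, nkx2.4, egr-4 and synapsin were read in at most 3 of 23 kept X2 cells, whereas pc2 was read in 13 and chat in 19. In X1 cells 1 to 72 and 73 to 96, pc2 was read in 24 of 35 and 12 of 21 cells and chat in 17 of 35 and 16 of 21. The median log2 ratio of the 6 was 3.35, but 0 passed the rule, since none with a 4-fold ratio was read in at least 50% of the X1 cells. It was 3.623 for X1 cells 1 to 72 and 1.472 for X1 cells 73 to 96, and it depended on the low X2 values: it was 6.11 with a pseudocount of 0.1, 1.132 with a pseudocount of 10, 0.85 as a difference of mean log2 values and 0.36 with no piwi-1 threshold. The summed level of the 6 had a median of 45.6 CPM in X1 cells 1 to 72 (0.171 to 3435 CPM), 23.5 CPM in X1 cells 73 to 96 (0.565 to 297 CPM) and 3.66 CPM in X2 cells (0 to 325 CPM). The tubes had 284 and 55.0 CPM for X1 and 92.3 CPM for X2. For castor, a zinc finger transcription factor gene, the mean was 17.4 CPM in X1 cells 1 to 72 (read in 19 of 35), 8.34 CPM in X1 cells 73 to 96 (8 of 21) and 0.0503 CPM in X2 cells (2 of 23), with 12.1 and 9.10 CPM in the X1 tubes and 12.1 CPM in the X2 tube. For pc2, which encodes a convertase that matures neuropeptides, 11 of 35, 5 of 21 and 1 of 23 cells had 10 CPM or more.

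Means of neuronal genes often came from single cells. Of synapsin, a synaptic vesicle protein gene, the X1 cells 1 to 72 had a mean of 31.8 CPM with 952 CPM in 1 cell, X1 cells 73 to 96 had 0.659 CPM and X2 cells 0.0645 CPM. Of chat, which encodes the enzyme that makes acetylcholine, the means were 36.7, 2.16 and 22.4 CPM, and 2 of 35 and 0 of 21 X1 cells but 6 of 23 X2 cells had 10 CPM or more. The log2 ratio of chat to X2 was 0.69 in X1 cells 1 to 72 and -2.89 in X1 cells 73 to 96. The transcription factor genes nkx2.4 and egr-4 were at 7.91 and 18.8 CPM in X1 cells 1 to 72, 4.08 and 16.2 CPM in X1 cells 73 to 96, and 0.0294 and 0.0328 CPM in X2 cells.

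Markers of 2 neoblast classes, sigma (broad potential) and zeta (epidermal fate), gave 1 call as lower and 0 as higher in 8 genes, where 0.81% and 2.757% of all transcripts compared were called. soxP-2, a Sox transcription factor gene of the sigma class, was lower in both X1 ranges, with means of 22.5 CPM, 19.1 CPM and 98.8 CPM in X2 cells and a log2 ratio of -2.16. This ratio lay close to the limit of -2, and the call was made in 5 of 16 alternatives and lost in 11, among them TMM factors, the authors' size factors and means of log2 values. Its tube values were 32.7 and 21.3 CPM for X1 and 56.3 CPM for X2. It had 10 CPM or more in 7 of 35, 4 of 21 and 6 of 23 cells, and these shares were close. inx-13, a gap junction gene of the innexin family, was read in 4 of 35 and 8 of 21 X1 cells and in 0 of 23 X2 cells, and the X2 tube had 7.21 CPM. For zfp-1, a zinc finger gene of the epidermal lineage, the means were 13.3, 31.0 and 83.2 CPM, and 1 X2 cell with 1803 CPM made most of the X2 value.

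Other fate genes reached 10 CPM in few cells of each group, though some were read at lower levels in more cells. pou2/3, a transcription factor gene of the excretory protonephridia, had means of 30.4, 0.128 and 35.8 CPM, with 800 CPM in 1 X1 cell and 821 CPM in 1 X2 cell. The 11 genes that the study linked to a neural neoblast population had a summed median of 0.827 CPM in X1 cells 1 to 72, 0 CPM in X1 cells 73 to 96 and 0 CPM in X2 cells. Of the 11, 5 were abundant enough to be compared, and 0 passed the rule. The study described that population as low in piwi-1, so the choice of cells favoured low values here. In X1 cells under the threshold, means ranged from 13.0 CPM (msi-2) to 151 CPM (ston-2). The median log2 ratio of the 11 was 0.04 among kept cells and 4.36 with no piwi-1 threshold. Of the 6 cloned transcription factor genes 4 were compared and 0 passed. ski-3 had 22.5, 51.4 and 0.581 CPM and ski-1 had 0.0186, 16.0 and 42.0 CPM, both members of the Ski family of transcriptional corepressors, with the gene read in at most 12 cells of a group.

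The 2 ranges of X1 cells also differed from each other. Of 12972 transcripts compared, 58 (0.4471%) were at least 4-fold higher in X1 cells 1 to 72 than in X1 cells 73 to 96, and 103 (0.794%) were at least 4-fold lower. The 2 unnamed transcripts highest in cells 1 to 72 were SmedASXL_014733, with means of 84.3 CPM against 2.06 CPM and 1 cell at 2530 CPM, and SmedASXL_012049, with 291 CPM against 10.9 CPM. The medians of SmedASXL_012049 were 10.5 CPM in cells 1 to 72 and 9.79 CPM in cells 73 to 96, so its difference of means came from few cells. The 2 unnamed transcripts lowest in cells 1 to 72 outside the X2 lineage list were SmedASXL_067286, with means of 2.6 CPM against 304 CPM, and SmedASXL_079037, with 0 CPM against 63.4 CPM. Both had more in X2 cells, 596 and 656 CPM, and 12.9 and 0.441 CPM in the X2 tube.

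Without the piwi-1 threshold, 13755 transcripts were compared, against 11605 among kept cells. Of these 13755, 96 were at least 4-fold higher and 84 at least 4-fold lower in X1 than in X2 cells. Of the 320 transcripts higher in kept X1 cells, 72 also passed without the threshold, and of the 94 lower ones, 52 did. The median log2 ratio of the 320 was 3.30 among kept cells and 1.645 among all cells. That of the 94 was -2.90 and -3.29, and that of all 11605 transcripts compared was 0.93 and 0.41. Both sets were chosen on the kept cells, which favours larger ratios there, so nothing is read from these changes.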

How the data were processed

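Raw counts of reads per transcript, as deposited by the authors, were used for the 96 X1 cells, the 72 X2 cells and the 3 tubes of 200 cells. Per the labels and the study's methods, 50-base single-end reads of SmartSeq2 libraries were trimmed and aligned to the SmedASXL transcriptome assembly with Bowtie2, and the submitters' processing notes name bcl2fastq 1.8.3, Bowtie2 2.2.4 and DESeq2. The counts were not normalized, and the entry of unassigned reads was left out of library sizes and held a median of 28.4% of a single cell's reads. The authors' normalized table was not used. CPM, means over cells, log2 ratios with a pseudocount of 1 CPM, Clopper-Pearson intervals and thinning without replacement (seed 1) were computed with Python 3.11.15, numpy 2.4.6, pandas 2.3.3 and scipy 1.17.1, TMM factors with edgeR 4.0.16 in R 4.3.3, and figures with matplotlib 3.10.9. Assigned reads per single cell ranged from 0.550 to 20.2 M.

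The code for the ratio and its call was tested on simulated data with known changes. With 1 sample per gate, no test between gates was made. The members and lists were chosen with earlier results of these data known. Named were all genes that the study's tables or code pair with a transcript, and in each comparison across transcripts the 2 highest and 2 lowest unnamed transcripts. Of 28 names in the study's table of markers, 22 were paired with a transcript by their CPM over 49 listed cells (r of at least 0.99, gap to the next of 0.1). Alternatives covered the threshold, normalization, pseudocount, filters, averaging, thinning and cells left out.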

Additional observations from a re-analysis of the deposited data

Results flagged for a closer look

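Reads assigned to no transcript lie outside the comparisons and took a larger median share in cells of the X2 gate, kept or not, than in X1 cells and the tubes. The median share was 16.4% in kept X1 cells 1 to 72 (10.1% to 57.9%), 17.5% in kept X1 cells 73 to 96 (9.02% to 48.0%) and 36.8% in kept X2 cells (19.6% to 61.6%). Under the piwi-1 threshold it was 21.3% in X1 cells and 42.6% in X2 cells, so the high share was not particular to kept X2 cells. The tubes had 6.14% and 11.3% for X1 and 9.26% for X2, so the X2 tube lay below every kept X2 cell. The ranges of single cells overlapped, and the part of these reads in the other differences was not tested.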

How the results depend on the processing

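Of the counts of transcripts at least 4-fold higher (320) or lower (94) in kept X1 cells, those under thresholds of 50 and 200 CPM, TMM factors, unassigned reads in the library size, a pseudocount of 0.1, raw sums and X1 cells 81 to 96 left out stayed within 1.5 times. The last was chosen after seeing the data, as was leaving the 3 largest transcripts out of the library size (480 and 64). Others moved: 96 were higher with no piwi-1 threshold, 71 with a pseudocount of 10, 199 with a minimum of 10 CPM and 495 without X1 cells 1 to 72. The number of transcripts compared was 11605 in the main setting and ranged from 2637 to 49279 over the alternatives. Higher and lower counts were 787 and 34 with the authors' size factors, 820 and 55 with each gate's highest 2 cells left out, 39 and 37 after thinning and 3544 and 1604 with no minimum share of cells, and 50 were lower with means of log2 values. The share of higher among calls was 77.3%, and ranged from 51.3% (thinned) to 95.9% (authors' size factors). The authors' factors moved the median log2 ratio of all transcripts from 0.93 to 2.12, TMM to 1.479 and leaving out the 3 largest to 2.04. The stem cell list's median of -0.27 was 1.601 with the authors' size factors, 2.249 with means of log2 values, 1.135 without the highest 2 cells, and 0.24 without the 3 largest transcripts. Median transcripts per kept cell were 2228 in X1 and 844 in X2 after thinning, 3362 and 1079 at 5 reads and 2231 and 851 at 5 CPM. Leaving out 1 X1 tube moved the tube medians to between 0.046 and 0.29 for the higher and between -0.24 and 0.050 for the lower transcripts. The causes were not tested. Of 55 named genes with a log2 ratio other than 0, 28 kept its sign in all 16 alternatives run. Of the 14 named genes called lower, 9 were called in all 16, the call of soxP-2 was lost in 11, and the others lost theirs in 1 to 3. Low read shares in X2 cells limit what a value near 0 shows. No paired analysis was possible because X1 and X2 cells share only a number in their labels, and no test was made.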
